A study of Mus musculus with 2 samples.

Results

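Several Sprouty, Spred and ETS genes are transcribed in answer to ERK, the last kinase of the RAS-RAF-MEK-ERK cascade of receptor tyrosine kinase signalling. The 10 genes described here are Spry1, Spry2, Spry4, Spred1, Spred2, Etv1, Etv4, Etv5, Ets1 and Ets2, taken by name from the 19946 genes for which a probe set named 1 gene alone. A probe set is a group of array probes read as one value. Each of the 10 genes had such a probe set, 3 of them (Spred2, Etv1 and Etv5) had a second one, and the probe set with the higher mean over both arrays stood for the gene. The genes were chosen by name as a family, with their celastrol minus DMSO differences already known, and the probe sets were selected on their mean level. The differences are therefore given as a description with no test.

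Mouse embryonic fibroblasts were compared in 2 cultures, each read on 1 whole-transcript array. Both had been infected with adenovirus expressing LacZ and were kept in DMEM with 1% FBS. The control culture received DMSO, the solvent, and the other culture received celastrol, a plant triterpenoid, at 250 nM, and both treatments lasted 7 h. The labels used here give no strain, passage or number of embryos, and no culture without the virus entered the comparison. Values are log2 signals after RMA, and with 1 array per group no difference has a replicate check or a p-value. Culture, array and compound cannot be told apart, nor can fewer cells of a type from less RNA per cell. Of 12 fibroblast markers 11 were above the detection limit, Lum was not, and Thy1 stood just above it (6.19 with DMSO, 6.02 with celastrol). The 3 brightest were Vim, the intermediate filament vimentin (13.85 and 13.95), Fn1, fibronectin (13.42 and 13.47), and the collagen gene Col1a1 (12.16 and 11.69). Of the 11 detected fibroblast markers 8 were lower with celastrol and 3 higher, none by 2-fold, and their median difference was -0.24. S100a4 (-0.88) and Postn (-0.61), which encodes periostin, had the lowest differences.

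Growth factor receptors switch on RAS through adaptor proteins, and active ERK enters the nucleus, where it phosphorylates transcription factors. Sprouty and Spred proteins are membrane-linked inhibitors that restrain the cascade upstream of ERK, and several of their genes are induced by the signal that they limit, which makes a negative feedback loop. Etv1, Etv4 and Etv5 form the PEA3 group of ETS transcription factors and are induced by FGF and other ERK-activating ligands, while Ets1 and Ets2 are ETS factors that ERK phosphorylates directly.

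Promoter sequence is shown for Etv5, Spry2 and Spred2, which are among the 5 genes with a difference of at least 1.5-fold. RefSeq promoter windows (GRCm38.p6, 250 bases before and 50 after a transcription start) were found for 7 of the 10 genes, in 9 windows. No window was found for Spry4, Etv4 or Ets1. The 250 upstream bases are printed 5′ to 3′ on the strand of the gene. Capitals mark GGAAGT, letters of an ETS site, or AGGAAG, the PEA3 letters, on either strand. The shorter ETS core GGAA was neither marked nor counted. The first Etv5 window lies at chr16:22439571-22439820 (minus strand) and the second, for another annotated start, at chr16:22438369-22438618 (minus strand). The Spry2 window lies at chr14:105896820-105897069 (minus strand) and that of Spred2 at chr11:19924192-19924441 (plus strand).
Etv5, first start: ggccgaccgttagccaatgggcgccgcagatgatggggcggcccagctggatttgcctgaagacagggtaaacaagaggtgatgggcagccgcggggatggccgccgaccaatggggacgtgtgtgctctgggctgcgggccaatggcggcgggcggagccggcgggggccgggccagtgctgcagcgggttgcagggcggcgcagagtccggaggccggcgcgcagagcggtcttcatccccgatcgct
Etv5, second start: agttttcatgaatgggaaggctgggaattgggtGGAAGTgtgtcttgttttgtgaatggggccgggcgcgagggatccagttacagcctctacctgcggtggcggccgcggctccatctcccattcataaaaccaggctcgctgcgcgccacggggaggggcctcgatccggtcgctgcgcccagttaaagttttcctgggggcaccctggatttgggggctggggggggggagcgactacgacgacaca
Spry2: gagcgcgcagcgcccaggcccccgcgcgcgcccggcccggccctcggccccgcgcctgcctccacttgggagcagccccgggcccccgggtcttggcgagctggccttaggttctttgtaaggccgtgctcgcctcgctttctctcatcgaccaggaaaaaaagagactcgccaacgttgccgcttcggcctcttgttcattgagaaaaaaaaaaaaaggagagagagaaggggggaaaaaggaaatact
Spred2: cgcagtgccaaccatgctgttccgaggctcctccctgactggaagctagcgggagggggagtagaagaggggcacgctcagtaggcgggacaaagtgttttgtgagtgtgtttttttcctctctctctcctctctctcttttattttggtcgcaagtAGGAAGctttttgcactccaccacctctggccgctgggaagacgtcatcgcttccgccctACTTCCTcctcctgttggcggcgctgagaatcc

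The Spred2 stretch holds AGGAAG with its first base 93 bases before the start, and overlapping reverse-strand matches of GGAAGT and AGGAAG whose leftmost bases lie 33 and 32 bases before it. In the second Etv5 window GGAAGT begins 217 bases before the start, and a further pair of overlapping matches lies just after the start, outside the printed bases. The Etv1 window of one start holds AGGAAG 8 and 4 bases before the start, the latter overlapping GGAAGT. The letters GGAAGT were found in 3 of the 9 windows and in 23.8% of all 32851 windows, and AGGAAG in 3 of 9 and in 35.4%. The other 6 windows held neither of these patterns, among them that of Spred1 (GC content 72.3%), which is not printed. They can still hold the shorter core GGAA, as the printed Spry2 stretch does. The longer ETS letters CCGGAAGT (3.89% of all windows) were in none of the 9. The AP-1 letters TGANTCA (7.81% of all windows), the CRE letters TGACGTCA (1.79%) and the antioxidant response letters TGACNNNGC (12.4%) were absent from them too. The same holds for the heat shock letters GAANNTTC (7.86%) and the CArG box (1.63%), the binding motif of serum response factor. Both strands were searched, overlapping matches were allowed, and a match or its absence describes only the letters in these windows. GC content was 74.0% in the first Etv5 window, 62.7% in that of Spry2 and 57.0% in that of Spred2, against a median of 52.7% over all windows. Etv1 had the lowest values, 48.7% and 44.0%.

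All 10 genes had a higher value with celastrol, where 48.1% of the 13902 detected genes were higher and 51.9% lower. A gene was called detected above 5.73 on either array, a limit below which 95% of the values of odorant and pheromone receptor probe sets lay. At least 2-fold higher values were found for 3 of the 10 genes, Etv5, Spry2 and Spry4, against 1.88% of all detected genes. None of the 10 was at least 2-fold lower, against 0.662%. At 1.5-fold, Spred2 and Spred1 joined them, which makes 5 of 10, against 6.19% of detected genes, and 0 of the 10 were lower by that much, against 4.68%. The median difference of the 10 genes was 0.64 on the log2 scale and that of all detected genes -0.01. Because the genes were chosen with the results known, these shares describe the 10 genes and carry no test.

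**Figure D1:**
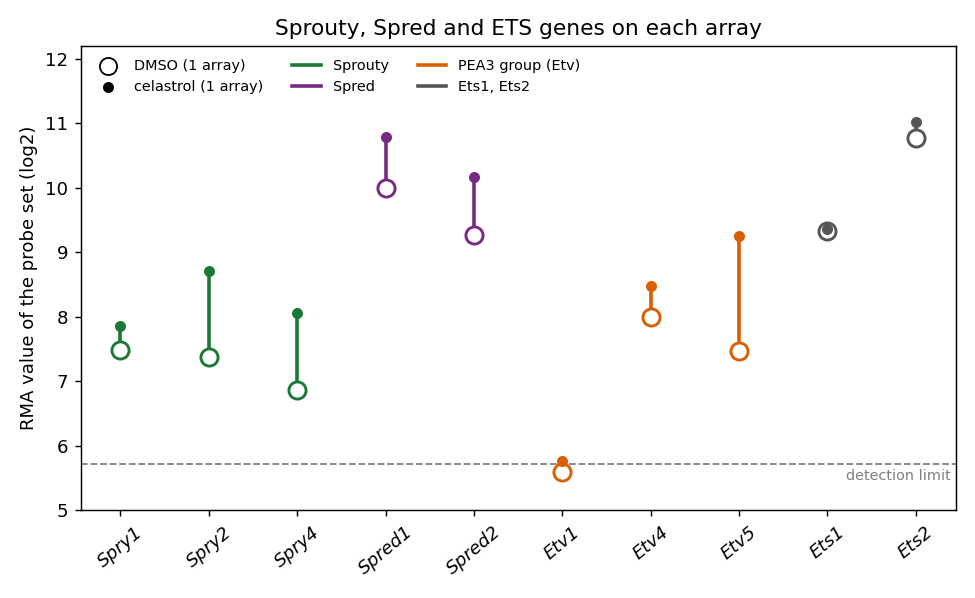
RMA values (log2) of the 10 genes on the DMSO array (open circles) and the celastrol array (small filled circles), 1 array each, coloured by family, with the detection limit of 5.73 as a dashed line. The line between the circles is the difference, longest for Etv5 (7.46 to 9.25) and shortest for Ets1 (9.34 to 9.36); heights of different genes come from different probes and are not comparable.

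The Sprouty genes differed by unequal amounts. Spry2, an inhibitor of receptor-driven RAS activation, read 7.37 with DMSO and 8.71 with celastrol. That is a difference of 1.34 on the log2 scale, or 2.54-fold higher, and ranked 107 from the top among 13902 detected genes. Spry4, another member of the family that is induced by FGF signalling, read 6.86 with DMSO and 8.05 with celastrol, 2.28-fold higher, at rank 155. Spry1, a feedback inhibitor known for its part in kidney development, read 7.48 and 7.85, which is 1.29-fold higher and at rank 1761. Thus Spry2 and Spry4 lay among the highest 0.77% and 1.11% of detected genes, and Spry1 among the highest 12.7%.

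Both Spred genes, which encode Sprouty-related inhibitors that bring neurofibromin to the membrane, were higher by less than 2-fold. Spred2 read 9.26 with DMSO and 10.17 with celastrol, 1.88-fold higher, at rank 349. Its second probe set read 8.55 and 9.53, a difference of 0.97 against 0.91 for the first. Spred1, the gene mutated in Legius syndrome, read 9.997 with DMSO and 10.79 with celastrol, 1.73-fold higher, at rank 475. The 2 remaining genes of these families stood in a similar place. Spry3 read 6.24 and 7.11 (1.83-fold higher) and Spred3 read 6.86 and 7.72 (1.82-fold higher). With them, all 7 Sprouty and Spred genes that had a probe set were higher, from 0.37 to 1.34 on the log2 scale, with a median difference of 0.87.

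The genes of the PEA3 group differed by unlike amounts. Etv5, a transcription factor of FGF-responsive tissues, had the highest difference of the 10 genes, with 7.46 for DMSO and 9.25 for celastrol. It was 3.45-fold higher and ranked 34 from the top, where 3-fold was reached upward by 0.432% of detected genes and downward by 0.137%. The second Etv5 probe set read 6.95 and 8.56, 3.06-fold higher. Etv4, a close relative that shares many binding sites with Etv5, read 8.005 with DMSO and 8.486 with celastrol, 1.40-fold higher, at rank 1195. Etv1 lay at the detection limit, with 5.60 for DMSO, below the limit, and 5.76 for celastrol, just above it. Its second probe set read 5.49 and 5.74, so no fold is given for this gene. The difference of Etv5 exceeded that of Etv4 by 1.31 on the log2 scale. Where the Etv5 and Etv1 probe sets lie in the genome could not be checked here. Whether any of them reads another copy of the gene sequence is therefore not known.

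Ets1 and Ets2, whose proteins ERK modifies, differed little between the arrays. Ets1 read 9.34 with DMSO and 9.36 with celastrol, a difference of 0.02, and 45.5% of detected genes had a difference at least as high. Ets2 read 10.77 and 11.02, a difference of 0.25 on the log2 scale, or 1.19-fold higher, at rank 2740.

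**Figure D2:**
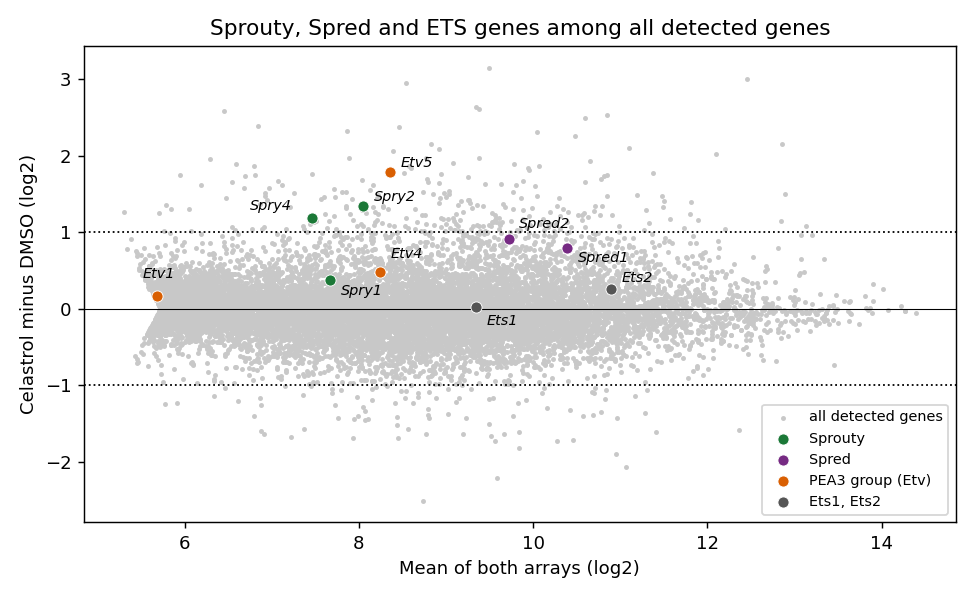
Celastrol minus DMSO (log2, vertical) against the mean of both arrays (log2, horizontal) for 13902 detected genes (grey) and the 10 genes (coloured by family), with dotted lines at 2-fold. Etv5, Spry2 and Spry4 lie above the upper dotted line, Spred2 and Spred1 just below it, and Ets1 on the zero line.

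Scatter within the arrays gives a scale for these sizes, though not the variation between cultures. The central 95% of 1210 receptor probe sets, which fibroblasts are not expected to express, had log2 differences from -0.42 to 0.41. Of the 10 genes, 6 exceeded the upper bound, while Spry1, Etv1, Ets1 and Ets2 lay within the range. Etv4 (0.48) was the lowest of the 6, and 8.6% of all detected genes had a difference at least as high. Most receptor values lay below the detection limit, and differences of dim probe sets come out smaller under RMA. The receptor range may therefore be too narrow a scale for brighter genes. The central 95% of all detected genes ran from -0.71 to 0.91, and 3 of the 10 exceeded that. The order of neighbouring genes, such as Spred2 and Spred1, or Etv4 and Spry1, cannot be judged without replicates. For genes with several detected probe sets, the differences of these sets were a median of 0.10 apart, and in the 3 genes with a second probe set here it gave the same direction.

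Other ways of processing these arrays left Etv5, Spry2 and Spry4 past 2-fold and the other 7 genes below it. They were averaging over the probe sets of a gene, quantile normalization, and subtraction of the median difference or of a lowess trend.

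**Figure D3:**
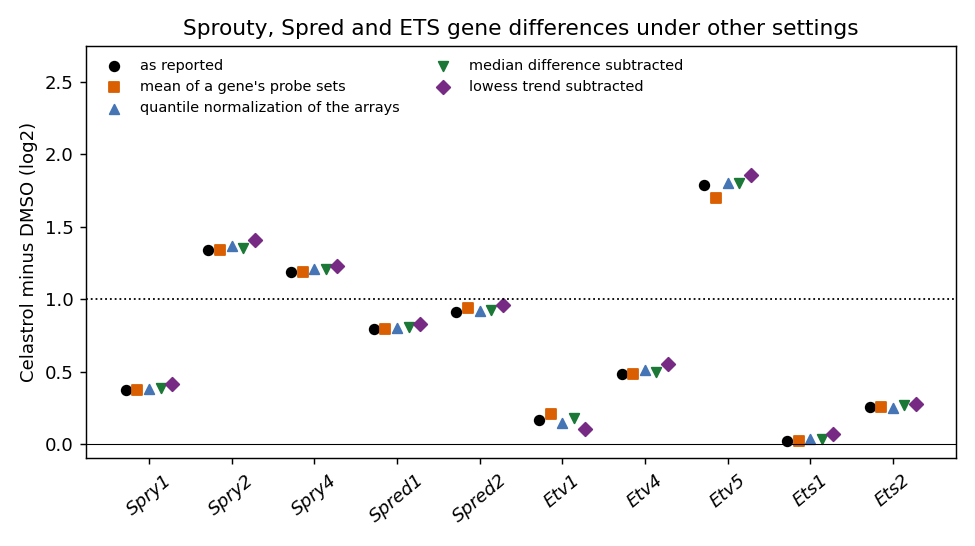
Celastrol minus DMSO (log2, vertical) of the 10 genes (horizontal) as reported (black circles) and under 4 other ways of processing the arrays, with a dotted line at 2-fold. Etv5 ran from 1.70 to 1.86, Spry2 from 1.34 to 1.41 and Spry4 from 1.19 to 1.23, all above the dotted line, while Spred2 ran from 0.91 to 0.96, below it.

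The pathway around the 10 genes was described through lists of other genes, all of them counted among detected genes. These lists too were chosen with earlier results of these data known, so their counts carry no test. For comparison, 48.1% of all detected genes were higher with celastrol, 1.88% reached 2-fold upward and 0.662% reached it downward. Of 18 other genes described as transcriptional output of ERK, 15 were higher with celastrol, 11 of which passed 2-fold, and the median difference was 1.13. The largest differences among them were those of the MAP kinase phosphatases Dusp4 (2.64) and Dusp5 (2.08) and of Hbegf (1.96), a ligand of the EGF receptor. Maff, a small Maf factor, stood at 1.68, and Egr1, a zinc finger factor made within minutes of ERK activation, at 1.65. Fosl1, an AP-1 subunit, was 2.34-fold higher. Dusp6, the phosphatase that acts on ERK in the cytoplasm, was 2.32-fold higher, reading 9.34 and 10.55. The chromatin protein gene Hmga2 (2.25-fold), the early gene Ier3 (2.23-fold), the ephrin receptor Epha2 (2.16-fold) and Phlda1 (2.10-fold) were the others past 2-fold upward.

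Not every gene of that list stood higher. Epha4, a second ephrin receptor, was 2.29-fold lower, reading 8.75 with DMSO and 7.56 with celastrol. Ccnd1, which encodes cyclin D1, stood at -0.14 and Lif, a cytokine of the IL6 family, at -0.37. Fos, the classic immediate early gene, was counted among the higher ones but stood at only 0.02. Fos read 7.18 and 7.19, while Egr1, from the same immediate early class, read 8.09 and 9.74.

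Among 20 other inhibitors of receptor, RAS and ERK signalling, which include Spry3, Spred3 and Dusp6, 13 were higher, 3 of which passed 2-fold, and 7 lower, none past 2-fold. Their median difference was 0.19. Rasa1, a GTPase-activating protein that turns RAS off, read 10.03 and 11.23, 2.29-fold higher, and Cblb, a ubiquitin ligase acting on receptors, was 2.04-fold higher. Nf1, which encodes neurofibromin, the partner of the Spred proteins, stood at -0.08. Tesk1, a kinase that binds Sprouty proteins, and Dusp7, a phosphatase of ERK, had the lowest values, -0.44 and -0.43.

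The other ETS factors differed less. Of the 16 detected ones 9 were higher and 7 lower, none of them by 2-fold, and the median was 0.02. Elf1 (0.63) and Gabpa (0.51), the DNA-binding subunit of GABP, were highest, and Ehf (-0.48) and Spib (-0.47), known from epithelium and lymphocytes, lowest, both of them below the limit with celastrol. Elk1, Elk3 and Elk4, the ternary complex factors that carry ERK signals to serum response elements, stood at 0.10, 0.17 and -0.07. Erf, an ETS repressor that ERK exports from the nucleus, stood at 0.04.

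Genes upstream and downstream of the 10 were mixed. Of 14 measured adaptors, RAS proteins and kinases of the cascade (of 21 listed; the others were not analysed here), 7 were higher and 7 lower, none past 2-fold, and their median was 0.00. Map2k1, which encodes the kinase MEK1, stood at 0.52 and Sos2, a RAS exchange factor, at 0.49, with Araf (-0.40) and Map2k2 (-0.29), which encodes MEK2, lowest. Among 13 receptor tyrosine kinases 7 were higher and 6 lower, none past 2-fold, and the median stood at 0.03. Ddr2, a collagen receptor, stood at 0.59 and Insr at 0.55, while Egfr stood at -0.53 and Erbb2 at -0.47. The FGF receptors were mixed, with Fgfr1 at 0.45, Fgfr3 at 0.28, Fgfr4 at 0.09 and Fgfr2 at -0.26. Of 9 detected genes described as ETS targets 6 were higher and 3 lower, with a median of 0.09. The collagenase gene Mmp13 was 2.13-fold higher, the urokinase gene Plau stood at 0.54, and Mmp9 (-0.84) and Mmp3 (-0.21) were lowest. Mmp3 read 5.55 with celastrol, below the limit.

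**Figure D4:**
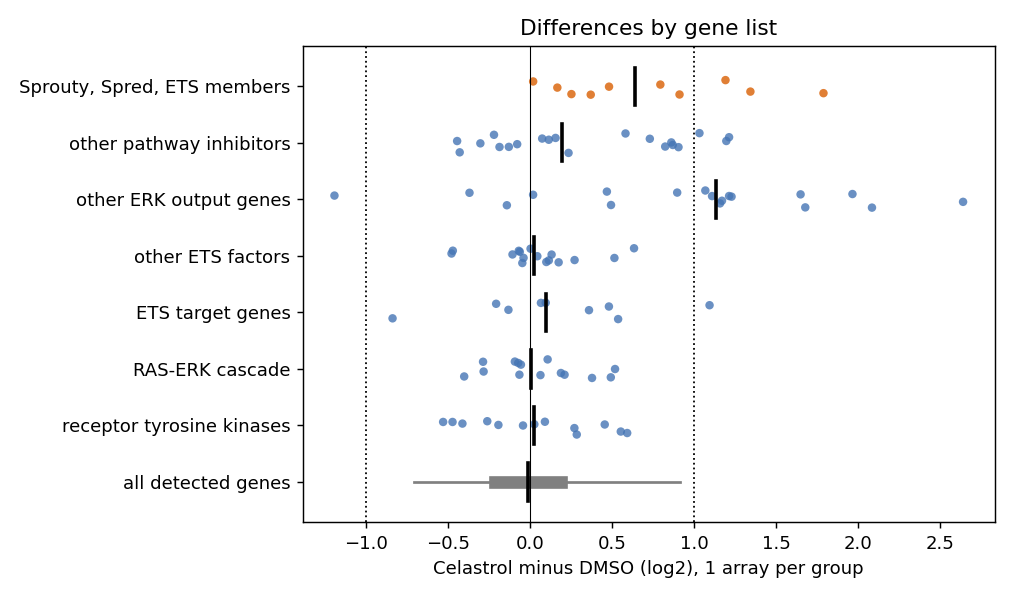
Celastrol minus DMSO (log2, horizontal) of each detected gene in the 7 lists (points; vertical scatter within a list has no meaning), with the median of each list as a black bar and dotted lines at 2-fold. The bottom row shows all detected genes (thick line, the interquartile range; thin line, central 95%; bar, median -0.01); medians were 0.64 for the Sprouty, Spred and ETS genes, 1.13 for the other ERK output genes and between 0.00 and 0.19 for the other 5 lists.

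Markers of other cell types were read beside these values. All 10 macrophage and leukocyte markers had a probe set, and their values ran from 4.69 to 6.94 with DMSO and from 4.64 to 8.33 with celastrol. Of these, 4 were detected, and Cd68, a lysosomal protein gene, stood at 1.47, Cd14 at 0.71 and Csf1r at 0.26, but Ptprc, Adgre1 and Itgam, which define leukocytes and macrophages, were below the limit on both arrays. The log2 values of the 10 summed to 55.7 with DMSO and 58.3 with celastrol. The 10 endothelial markers had values from 4.57 to 7.22 with DMSO and from 4.58 to 7.05 with celastrol. Of these, 6 were detected, and Pecam1, Kdr and Tek were below the limit on both arrays. Their log2 values summed to 58.1 and 58.7, and the brightest, Egfl7, Vwf and Tie1, differed by -0.17, 0.07 and 0.03. Epithelial markers (7 of 9 detected) summed to 52.2 and 52.5, muscle markers (6 of 8) to 52.4 and 54.3, and neural markers (5 of 7 measured) to 44.7 and 45.8. Among the brightest epithelial markers Krt8 stood at -0.04, Krt18 at 0.01 and Cldn4 at -0.05, among muscle markers Tnnt2 at 0.87, Tnnc1 at 0.77 and Myl4 at 0.05, and among neural markers Map2 at -0.41, Nes at 0.23 and Tubb3 at 0.16. The part of such cells in the Sprouty, Spred and ETS differences was not tested.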

How the data were processed

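The deposited values are log2 expression per probe set, made by the authors with RMA, per the submitters' processing notes. The RMA version, its settings and any further arrays normalized together are not stated in these sources. Differences of dim probe sets come out smaller under RMA. RNA was extracted with Trizol and biotin-labelled with whole-transcript kits, per the labels' protocols. Depth has no meaning for arrays, and the number of arrays (1 per group) limits the precision.

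Of 35556 probe sets, 21797 named 1 gene in GEO's platform annotation. For 21706 of these the symbol was taken from a GRCm38.p6 gene table, whether or not it differed. Probe sets naming several genes (1613) or none (12146) were left out, and 0 other value columns were present. A gene took its probe set with the highest mean. Differences are celastrol minus DMSO, with no test. The step from probe sets to genes was run on simulated data, where planted differences well past 2-fold came back. The list counts and the detection limit were not tested that way. Named are the 10 genes, every list gene at least 2-fold apart, otherwise the 2 highest and 2 lowest of a list, and the 3 brightest of each marker list, with further genes named after their values were seen. The 10 genes and all lists were chosen with earlier results of these data known, and 4 genes are in 2 lists. Protein sequences were not used here. Python 3.11.15, numpy 2.4.6, pandas 2.3.3, statsmodels 0.14.6 and matplotlib 3.10.9 were used. Alternatives were another detection limit or none, the mean of probe sets, quantile normalization, subtraction of the median or of a lowess trend (fraction 0.3), and fold thresholds of 1.5 and 3.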

Additional observations from a re-analysis of the deposited data

How the results depend on the processing

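No paired analysis was possible because each group had 1 array. The number of Sprouty, Spred and ETS genes past the threshold was 3 at 2-fold, 5 with a 1.5-fold threshold and 1 with a 3-fold threshold, the last being Etv5, and it followed the threshold by construction. It stayed at 3 higher and 0 lower under the other alternatives, which were 2 detection settings, the mean of probe sets, quantile normalization and both subtractions. Of 40 recalculated gene differences, all 40 moved by less than 0.21, the SD of the receptor probe set differences, with shifts between -0.09 and 0.07. The median of the 10 genes ran from 0.64 to 0.79 and that of the ETS target genes, reported as 0.09, from 0.08 to 0.23, both highest with the stricter detection limit, which leaves fewer genes. Medians near 0 changed sign for the other ETS factors (-0.02 to 0.11) and for the receptor tyrosine kinases (-0.01 to 0.06). Without Dusp6, which another list also holds, the ERK output median was 1.11, an alternative added after seeing the data. Background and saturation of single probes were not analysed here, which limits the reading of Etv1.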

Other observations

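A further list, added after the values of the Sprouty, Spred and ETS genes were seen, holds 10 genes whose products are known to repress or degrade Sprouty or ETV transcripts or proteins, or belong to such machineries. Of these, 4 were higher and 6 lower with celastrol, none by 2-fold, with a median difference of -0.05. Cic, which encodes capicua, a repressor of Etv1, Etv4, Etv5 and Sprouty genes that ERK inactivates, had the lowest difference of the list, with 8.60 for DMSO and 8.19 for celastrol, or -0.41. Its partner genes Atxn1 and Atxn1l stood at 0.06 and -0.04. Siah2, a ubiquitin ligase that acts on Sprouty2, had the highest difference, reading 8.65 and 9.25, 1.51-fold higher. Cop1 and Det1, subunits of a ubiquitin ligase that degrades PEA3 group proteins, stood at -0.08 and 0.16. Siah1a stood at 0.20, Nedd4 at -0.07, Fbxw7 at -0.14 and Cnot1 at -0.21. The capicua letters TGAATGAA, searched for after the values were seen, were in none of the 9 promoter windows and in 1.30% of all windows. Only these exact letters were searched for, on both strands, and no other form of the capicua site was. Their absence therefore does not show that the windows, that of Spry2 among them, lack a capicua site.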
